A study of Mus musculus with 6 samples.

Results

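Oxidative phosphorylation genes encode the respiratory chain and the ATP synthase of mitochondria. They were examined here in mouse mesenchymal stromal cells, which make the connective tissue framework of an organ, by mRNA sequencing. The genes were chosen by symbol: Nduf, Sdha to Sdhd, Uqcr, Cox4i, Cox5, Cox6, Cox7, Cox8, Atp5 and mt- names, leaving out pseudogene names ending in -ps and genes with fewer than 10 counts over all libraries. Of 52997 genes in the count table, 127 had such a name and 96 had enough counts, 85 of them in the nuclear genome and 11 in the mitochondrial genome. The 11 comprised 8 mRNAs and 3 transfer RNAs (mt-Tl1, mt-Tp and mt-Tv), and 90 of the 96 genes, 82 nuclear genes and the 8 mitochondrial mRNAs, passed the filter on low counts and were tested.

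The muscle group held stromal cells of hindlimb skeletal muscle, and the lymph node group held stromal cells of inguinal, axillary, brachial and cervical nodes. All were C57BL/6 mice at 8 weeks of age, with no treatment or allele in the labels, and each library came from 1000 cells sorted in a pair of passes. There were 3 libraries per tissue, numbered here as the count table numbers them: muscle 2, 3 and 4 and lymph node 1, 2 and 3. A pair of the muscle titles shares a number and the labels do not say which libraries come from separate animals, so p-values measure the spread between these libraries only. The summed stromal markers, among them Pdgfra and Col1a1, lay between 65010 and 84060 CPM (counts per 1000000, scaled to each library's effective size) in muscle and between 82440 and 103000 CPM in lymph node.

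Respiratory complexes I, III and IV pump protons out of the mitochondrial matrix as electrons pass to oxygen, complex II feeds in electrons from succinate, and complex V, the ATP synthase, uses the proton gradient. Complex II is built from nuclear genes alone, whereas the other complexes need subunits from both genomes. The mitochondrial genome is transcribed as long precursors that are cut at the transfer RNAs, so its mRNAs share promoters while the nuclear genes each have their own.

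Libraries differed in depth, which ran from 415460 total counts in muscle 4 to 2397134 in lymph node 2. Muscle 4 stood apart: its log2 CPM over the 10823 tested genes correlated at r = 0.705 and 0.702 with muscle 2 and 3, which correlated with each other at r = 0.952 (across genes, which are not independent replicates). Marker sums of blood cells were higher in muscle 4 than in the other 5 libraries, at 484 CPM against 3.997 to 14.2 CPM for T cells, 3183 against 20.6 to 275 CPM for B cells, 183 against 10.02 to 21.9 CPM for myeloid cells and 626 against 6.85 to 13.1 CPM for red cells. The median nuclear oxidative phosphorylation gene had 83, 44 and 14 counts in muscle 2, 3 and 4 and 72, 96 and 84 counts in lymph node 1, 2 and 3. Medians by complex, calls, and many of the values that moved by over 1.5 times are therefore also given without muscle 4. A value given only once may still have moved. The part of these blood cell transcripts in the results was not tested.

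The mitochondrial mRNAs come first because 5 of the 13 protein-coding genes were listed at 0 counts in all 6 libraries. These were mt-Co2 and mt-Co3, core subunits of complex IV, mt-Atp6 and mt-Atp8, membrane subunits of complex V, and mt-Nd4l, a membrane subunit of complex I. The same genes lie beside or within a stretch that has a nuclear copy. On chromosome 1, between positions 24611535 and 24616197 of GRCm38 (the assembly also called mm10), GENCODE release M21 lists 7 unprocessed pseudogenes that copy mitochondrial genes in order, from within mt-Co1 to within mt-Nd4. All 7 copies were also listed at 0 counts. Reads were 25 bases long, so a pair of genes that share a run of 25 bases can give reads that match both equally well.

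Stretches of mt-Co2, which was listed at 0, and of its copy Gm28661 are shown first (chrM:7313-7392 on the plus strand and chr1:24615186-24615265 on the minus strand, GRCm38). Their 80 bases are the same, as are all 681 aligned bases of the pair, and no base is in capitals because none differs:
mt-Co2: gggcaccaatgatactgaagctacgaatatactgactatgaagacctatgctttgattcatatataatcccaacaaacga
Gm28661: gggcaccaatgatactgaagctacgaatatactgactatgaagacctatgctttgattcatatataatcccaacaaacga
The start of mt-Nd3 (chrM:9459-9538, plus strand) differs from the start of its copy Gm28438 (chr1:24613040-24613119, minus strand) at base 3, shown in capitals, and nowhere else in 345 aligned bases:
mt-Nd3: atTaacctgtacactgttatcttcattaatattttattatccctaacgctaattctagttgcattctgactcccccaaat
Gm28438: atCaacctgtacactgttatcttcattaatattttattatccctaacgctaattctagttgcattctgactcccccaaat
The ends of the copied stretch fall inside genes that did have counts. In mt-Co1 (chrM:6354-6433) and mt-Nd4 (chrM:11003-11082), capitals mark the bases of the exact run shared with Gm29216 and Gm28439:
mt-Co1: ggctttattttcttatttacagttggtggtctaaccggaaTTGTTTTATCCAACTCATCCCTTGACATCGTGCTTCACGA
mt-Nd4: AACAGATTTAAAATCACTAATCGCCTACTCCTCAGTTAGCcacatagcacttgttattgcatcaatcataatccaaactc
A copy on chromosome 2 that is less alike is shown for contrast. Gm13340 (chr2:22589128-22589207, minus strand) and mt-Co1 (chrM:5768-5847) differ at 4 of these 80 bases, in capitals, and are 97.6% identical over 1545 aligned bases:
mt-Co1: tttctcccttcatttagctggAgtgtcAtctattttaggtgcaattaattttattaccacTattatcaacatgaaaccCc
Gm13340: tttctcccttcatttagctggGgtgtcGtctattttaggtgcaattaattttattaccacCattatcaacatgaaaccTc
All sequences were taken from the GENCODE M21 transcripts.

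Each gene's 25-base words were looked up in the transcripts of all other genes, and the percent found there was set beside the counts. Of the 5 genes listed at 0, 4 shared nearly all words: mt-Co2 100%, mt-Co3 99.9%, mt-Atp6 99.5% and mt-Nd4l 98.9%. mt-Nd3 shared 98.1% and had 75 counts over all libraries. mt-Nd1, which shared no word, had 15074 counts, and mt-Cytb, mt-Nd6, mt-Nd2 and mt-Nd5 shared between 13.04% and 21.3% and had 12450, 379, 3740 and 5774 counts. mt-Atp8 was the exception, with 11.7% shared words and 0 counts. It lies between mt-Co2 and mt-Atp6, where the mitochondrial genes are 230 bases apart and their copies on chromosome 1 are 233 bases apart, and the genome sequence of that gap was not used here.

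The copied stretch also covers part of 2 genes that had many counts. mt-Co1, the catalytic subunit of complex IV, had 22487 counts although 69.7% of its words were shared, of which an exact run of 479 bases belonged to the chromosome 1 copy. mt-Nd4, a proton-pumping subunit of complex I, had 3252 counts, and 876 of its 1378 bases were identical to its copy. Per kilobase, the levels over all libraries were 1698 CPM for mt-Nd1, 1619 CPM for mt-Co1, 1176 CPM for mt-Cytb, 393 CPM for mt-Nd2, 360.3 CPM for mt-Nd5, 255 CPM for mt-Nd4, 91.6 CPM for mt-Nd6 and 24.4 CPM for mt-Nd3. Dividing all counts of the gene by only the bases outside exact runs of 200 or more bases gave 2346 CPM per kilobase for mt-Co1 and 700.5 CPM for mt-Nd4. These values are levels outside the runs only if no read from the runs was counted, which is not known. For mt-Co1, the bases outside still hold shorter runs shared with Gm13340. How reads with several alignments were treated is not given in the sources used here, and the part of the copies in the 0 counts was not tested. A count of 0 here does not show that the mRNA was absent, and no statement on the tissues can be made for these 5 genes.

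**Figure D1:**
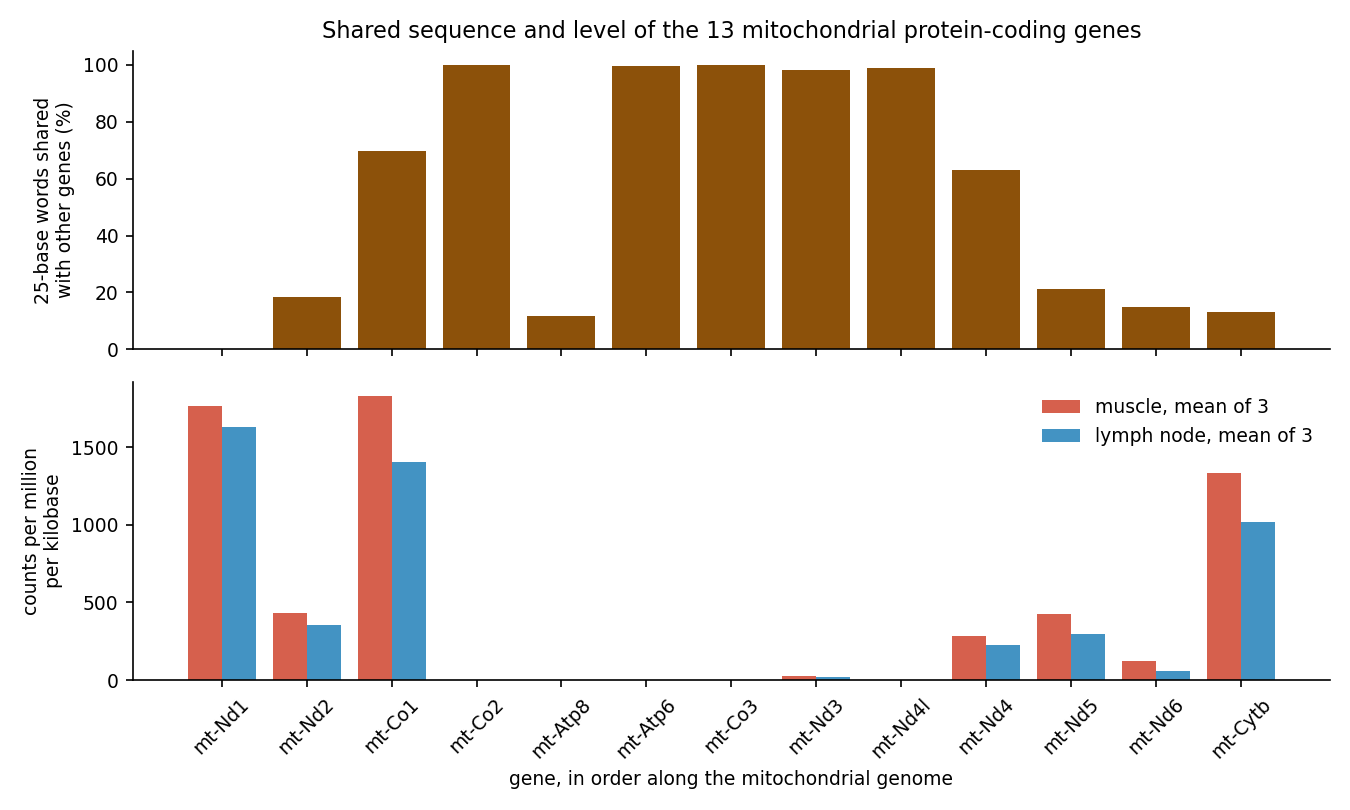
Top, percent of each mitochondrial protein-coding gene's 25-base words found elsewhere in the transcripts; bottom, mean level per kilobase in CPM in muscle and lymph node (3 libraries each), with genes in order along the mitochondrial genome. The genes from mt-Co2 to mt-Nd4l sit at or near 0 in both tissues, and all of them but mt-Atp8 share at least 98.1% of their words.

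Among the mitochondrial mRNAs with counts, all 8 had higher mean levels in muscle than in lymph node, and none passed the test. The median log2 fold change (muscle minus lymph node, from edgeR's quasi-likelihood test) was 0.37, between 0.11 for mt-Nd1 and 0.87 for mt-Nd6. Without muscle 4 the median was 0.21 and 7 of 8 were positive, with mt-Nd1 at -0.15. With no filter on low counts 7 of 8 were also positive, at a median of 0.16, where the 10823 genes of the main comparison had a median of -0.14. The tissues did not overlap for mt-Nd6, mt-Cytb, mt-Nd5 and mt-Nd4, and those of mt-Nd4 did overlap once muscle 4 was left out and the rest were scaled again. Over all tested genes, 9.93% had every muscle library above every lymph node library and 13.7% had every muscle library below. Of 5 nuclear-retained RNAs, which bear on RNA content, 4 were tested and with all libraries Neat1 alone was called, lower in muscle (-1.58 ± 0.20, edgeR adjusted p = 0.00237). Without muscle 4, where 12.4% of all tested genes were called, Neat1 and Meg3 were called lower. The summed level of the 5 RNAs lay between 4755 and 5325 CPM in muscle and between 6039 and 7574 CPM in lymph node, and its part in the mitochondrial mRNA levels was not tested.

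mt-Nd6, the complex I subunit encoded on the strand opposite to the other mRNAs (chrM:13552-14070), had 46.9, 40.7 and 102 CPM in muscle 2, 3 and 4 and 33.1, 30.9 and 31.4 CPM in lymph node 1, 2 and 3. Muscle 4 was the highest library, and muscle 2 and 3 were also above all lymph node libraries. The log2 fold change was 0.87 ± 0.34 (SE) with an edgeR adjusted p of 0.253, and 0.46 ± 0.20 with adjusted p = 0.185 without muscle 4. mt-Nd6 overlaps the end of mt-Nd5 on the opposite strand, and because the use of strand in counting is not given in the sources used here, reads of its antisense strand cannot be told apart.

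mt-Cytb, the only mitochondrial subunit of complex III (chrM:14145-15288), had 1462, 1408 and 1712 CPM in muscle and 1339, 1066 and 1085 CPM in lymph node. Here the separation did not depend on muscle 4 alone. The log2 fold change was 0.39 ± 0.18 with all libraries (edgeR adjusted p = 0.361) and 0.30 ± 0.14 without muscle 4 (adjusted p = 0.215). mt-Nd5, a proton-pumping complex I subunit, had 625.0, 620.1 and 1072.5 CPM in muscle against 578, 531 and 516 CPM in lymph node, a log2 fold change of 0.50 ± 0.24 and of 0.19 ± 0.13 without muscle 4. mt-Nd4 had 368, 366 and 449 CPM against 364, 282 and 281 CPM, where muscle 3 and lymph node 1 nearly met.

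The other genes overlapped between tissues. mt-Co1 had 2280.2, 2500.4 and 3707 CPM in muscle and 2381, 2075 and 2063 CPM in lymph node, so that muscle 2 lay below lymph node 1, and its log2 fold change was 0.38 ± 0.22 and 0.13 ± 0.13 without muscle 4. mt-Nd1 had 1433, 1399 and 2236.5 CPM in muscle and 1755, 1505 and 1424 CPM in lymph node. For this gene, which shares no word with others, the mean of muscle 2 and 3 lay below that of lymph node, and muscle 4 was the highest library. mt-Nd2 had 406, 363 and 578 CPM against 395, 332 and 373 CPM, and mt-Nd3 had 10.5, 5.38 and 13.4 CPM against 11.4, 4.30 and 5.92 CPM. Muscle 4 was the highest of the 6 libraries for all 8 mRNAs.

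**Figure D2:**
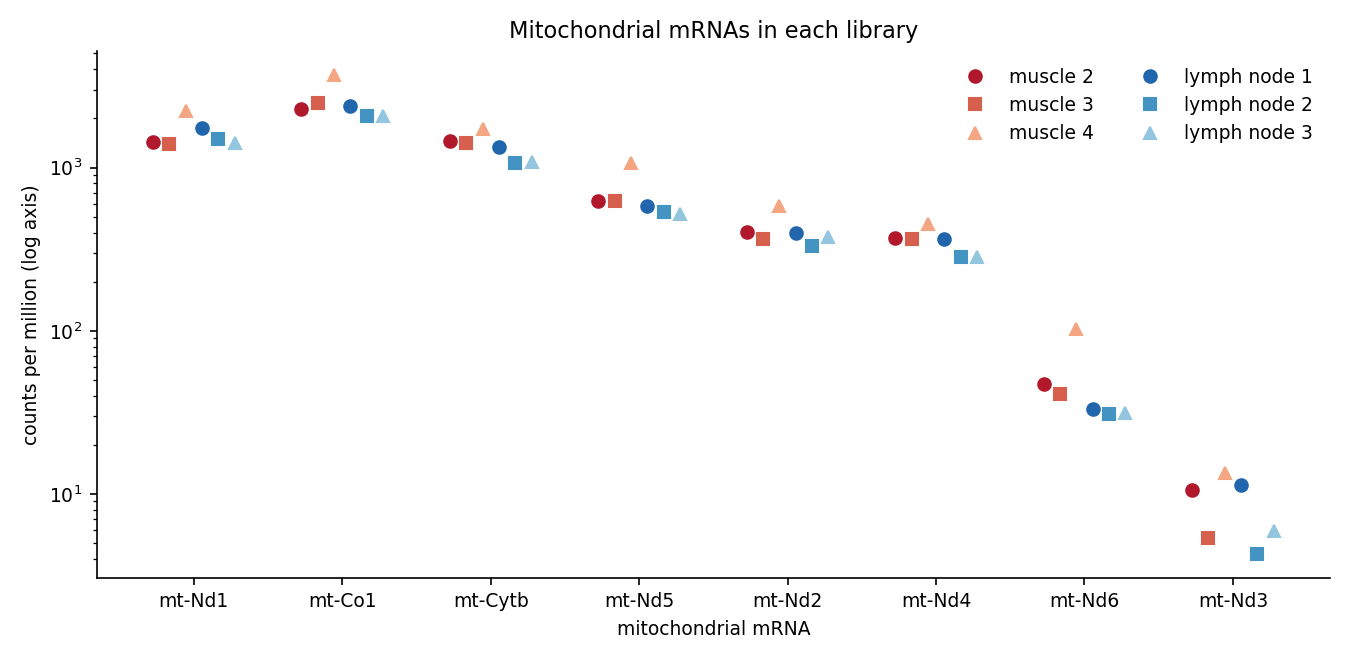
Level of the 8 mitochondrial mRNAs with counts in each library, in CPM on a log axis; each point is 1 library. Muscle 4 is the highest point for every gene, and muscle 2 and 3 lie above all lymph node libraries for mt-Cytb, mt-Nd5, mt-Nd4 (by a margin lost when muscle 4 is left out of the scaling) and mt-Nd6.

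Summed over rows, mt- genes held 0.6825%, 0.6955% and 0.8860% of all gene counts in muscle 2, 3 and 4 and 0.6494%, 0.5665% and 0.5525% in lymph node 1, 2 and 3. The 5 mRNAs listed at 0 add nothing to these sums, and the mt- rows held no ribosomal RNA. Whether reads from the copied stretches of mt-Co1, mt-Nd3 and mt-Nd4 were counted is not known. These percents, and the ratios to nuclear counts below, are therefore not the whole mitochondrial share of RNA. As percents of total counts the tissues did not overlap, at means of 0.755% ± 0.114 and 0.590% ± 0.0524 (SD, n = 3 each), and the mean of muscle 2 and 3 was 0.689%. These percents leave out the TMM scaling factors, which were 1.05, 1.06 and 0.958 in muscle and 0.962, 0.992 and 0.977 in lymph node. Scaled to the effective sizes that CPM values use, muscle 2 and 3 lay below lymph node 1, so the tissues overlapped. The 95% exact binomial interval of these percents was widest for muscle 4, from 0.858% to 0.915%. It covers counting error only and takes each count as independent. The protocol describes amplification and no molecular identifiers, so copies of the same molecule cannot be told apart and the interval may be too narrow. The nuclear genes went the other way in muscle 4: they held 0.506%, 0.4585% and 0.397% in muscle and 0.467%, 0.472% and 0.445% in lymph node. Their means were 0.454% ± 0.0543 in muscle and 0.461% ± 0.0139 in lymph node (SD, n = 3 each). The mean of muscle 2 and 3 was 0.482%, above that of lymph node. There were 1.35, 1.51 and 2.22 mitochondrial mRNA counts per nuclear count in muscle and 1.39, 1.20 and 1.24 in lymph node, so muscle 2 fell within the range of lymph node. In libraries of sorted cells, a different mix of cells and a different amount of RNA per cell cannot be told apart. Transfer RNAs, which the polyadenylated RNA selection does not aim at, had 96 counts in all libraries over 22 rows, of which 12 were at 0.

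**Figure D3:**
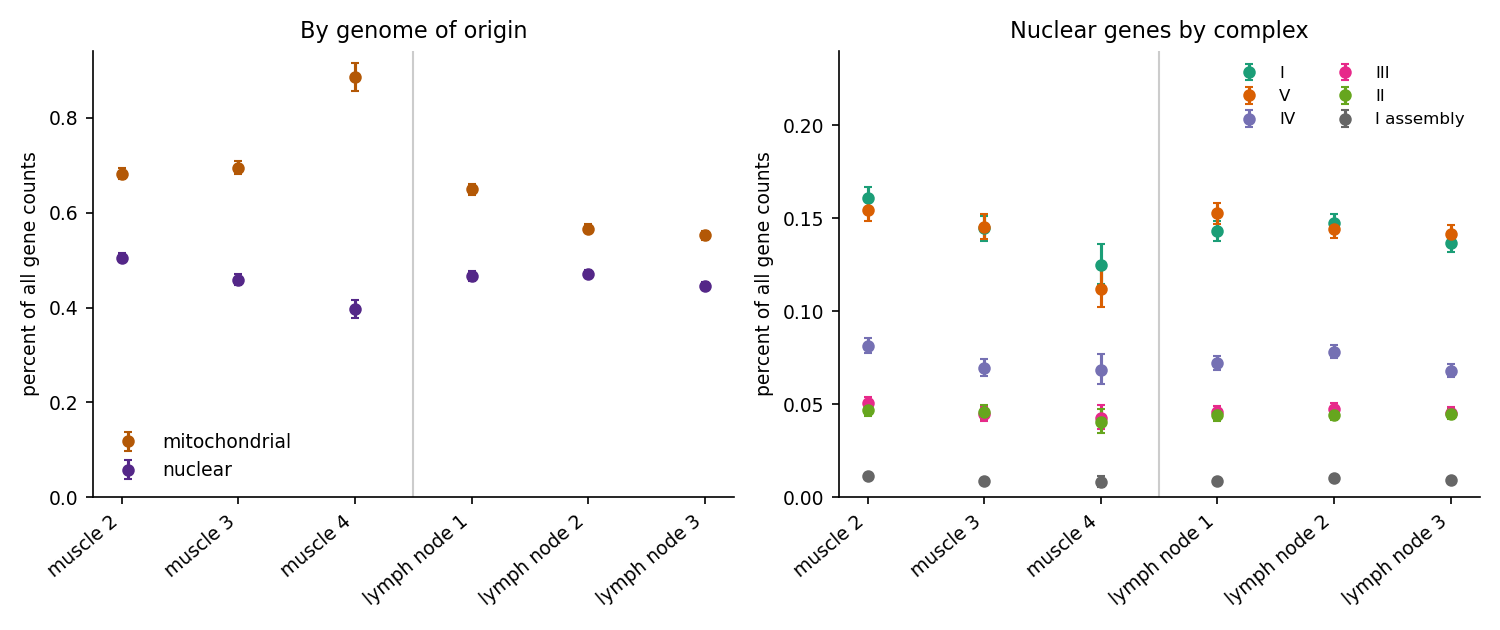
Percent of all gene counts, without TMM scaling, held by mitochondrial and nuclear oxidative phosphorylation genes (left) and by the nuclear genes of each complex (right) in each library. The mitochondrial percent holds nothing from the 5 mRNAs listed at 0 and no ribosomal RNA. Bars are 95% exact binomial intervals for counting error, with each count taken as independent. Muscle 4 is highest for mitochondrial genes at 0.8860% and lowest for nuclear genes at 0.397%.

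Differences between the tissues were small beside their error for most nuclear genes. The 82 tested had a median log2 fold change of -0.02 (0.00 without muscle 4), and the 95% interval lay within a 2-fold change either way for 59 of them. No nuclear gene, and none of the 90 tested genes of either genome, passed an edgeR adjusted p under 0.05, where 4.32% of all tested genes did (468 of 10823). At an unadjusted p under 0.05 there were 4 of 90, against 15.1% of all tested genes. DESeq2 and limma-voom also called none of the 90, where they called 6.34% and 5.82% of all genes, and put 2 and 4 of them at an unadjusted p under 0.05. Without muscle 4 the share of called genes was 12.4% (1391 of 11246), while 1 of 92 tested oxidative phosphorylation genes was called, and 7 of 92 had an unadjusted p under 0.05, against 23.3% of all genes.

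The absence of calls can be read against the intervals. The 90 log2 fold changes had a median of 0.00, with 45 positive and 45 negative. Their median size was 0.22, against 0.33 over all tested genes, and 2 of 90 (2.22%) exceeded a 2-fold change, against 11.8%. The 95% interval lay wholly within a 2-fold change either way for 64 of 90 genes (71.1%), against 37.1% of all genes, and for 74 of the 90 without muscle 4. Precision depends on the level, so the same was counted among genes of at least 20 mean CPM. There the intervals of 86.3% of 73 oxidative phosphorylation genes and of 54.2% of 6879 genes lay within 2-fold, and 0 of the 73 exceeded 2-fold against 9.57%. For the other 26 of the 90 genes, a difference of 2-fold or more is within the interval. Across the 85 nuclear genes, log2 levels per kilobase in the tissues correlated at r = 0.949, which describes genes that share libraries.

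**Figure D4:**
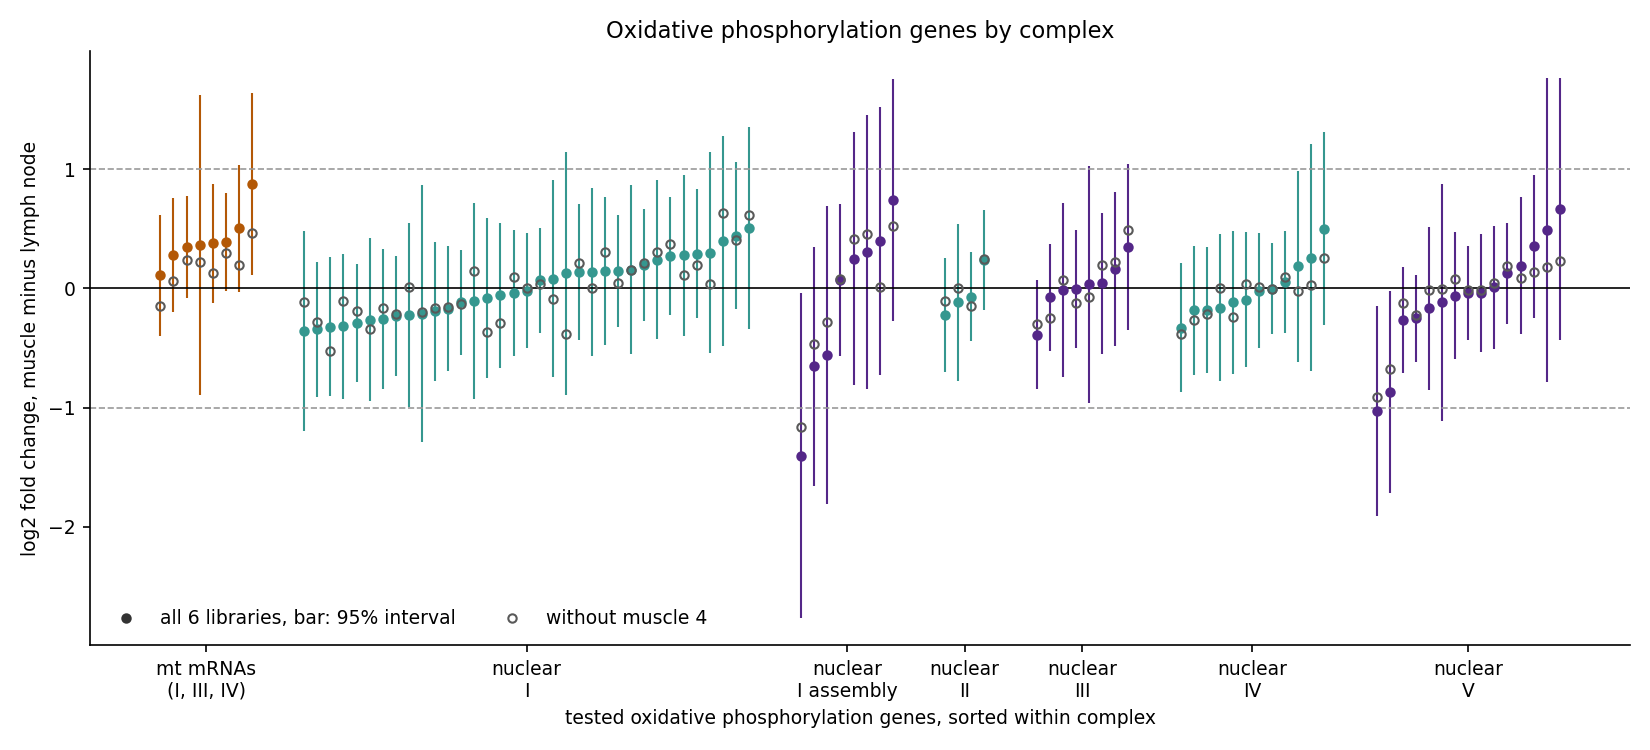
Log2 fold change, muscle minus lymph node, of the 90 tested oxidative phosphorylation genes, sorted within complex; filled points use all 6 libraries with 95% intervals, open points leave out muscle 4, and dashed lines mark a 2-fold change. The nuclear complexes scatter around 0 with medians between -0.09 and 0.16, and the 8 mitochondrial mRNAs lie above 0 with all libraries.

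Complex I, NADH dehydrogenase, had 35 nuclear subunits tested, with a median log2 fold change of -0.02 (0.00 without muscle 4), 17 positive and 18 negative, between -0.36 and 0.51. The 7 nuclear core subunits, among them those that carry the flavin and the iron-sulfur clusters, had a median of -0.08 and the 28 accessory subunits 0.03. The highest levels per kilobase belonged to the accessory subunits Ndufa2 (96.8 CPM) and Ndufb9 (81.9 CPM), against a median of 43.3 CPM. Ndufb9 had 57.5, 58.4 and 61.8 CPM in muscle and 53.7, 55.8 and 58.7 CPM in lymph node, a log2 fold change of 0.07 ± 0.20 with an interval from -0.37 to 0.51, and 0.04 ± 0.17 without muscle 4. Among complex I subunits of at least 20 mean CPM, Ndufb7 had the largest positive value over all libraries, with 31.6, 26.9 and 32.3 CPM in muscle and 23.98, 22.8 and 19.6 CPM in lymph node. Its libraries did not overlap, and its log2 fold change was 0.44 ± 0.27 (edgeR adjusted p = 0.528) and 0.41 ± 0.25 without muscle 4, where Ndufa5 was higher at 0.64 ± 0.27 (adjusted p = 0.164). Ndufa1 was at the other end, with 42.7, 26.9 and 10.8 CPM in muscle and 46.3, 34.4 and 34.6 CPM in lymph node, at -0.36 ± 0.37 and -0.11 ± 0.25 without muscle 4. Ndufa10, named after its values were seen, was the lowest without muscle 4, at -0.52 ± 0.20 (edgeR adjusted p = 0.115). Muscle 2 and 3 then lay below all lymph node libraries. With all libraries Ndufa10 overlapped between tissues, at -0.32 ± 0.26.

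Complex I assembly factors, which help put the complex together and are not part of it, were the least abundant of the nuclear groups, at a median of 8.03 CPM per kilobase. All 8 were tested, with a median log2 fold change of 0.16 (0.04 without muscle 4, -0.14 without muscle 2 and -0.02 without lymph node 1) and the widest scatter, from -1.40 to 0.74. The interval lay within a 2-fold change for 1 of the 8, so most of this group is not resolved at this depth. Ndufaf7, a mitochondrial methyltransferase, had 30.1, 26.9 and 26.9 CPM in muscle and 20.6, 30.1 and 29.6 CPM in lymph node. Ndufaf6, singled out after its values were seen, had 5.27, 2.31 and 0 CPM in muscle and 10.3, 8.59 and 8.19 CPM in lymph node. Its log2 fold change of -1.40 ± 0.61 had an unadjusted p of 0.0450 and an edgeR adjusted p of 0.313, and was -1.16 ± 0.51 without muscle 4.

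Complex II, succinate dehydrogenase, had 4 genes tested, at a median log2 fold change of -0.09 (-0.05 without muscle 4), and all 4 intervals lay within a 2-fold change. Sdha, the flavoprotein that oxidizes succinate, had 252, 251 and 296 CPM in muscle and 280.4, 269.8 and 284 CPM in lymph node, a log2 fold change of -0.07 ± 0.17 (interval -0.44 to 0.31) and of -0.15 ± 0.13 without muscle 4. Sdhb, the iron-sulfur subunit, had 93.4, 91.4 and 88.7 CPM in muscle and 83.4, 73.5 and 76.0 CPM in lymph node. The libraries of Sdhb did not overlap, and its log2 fold change was 0.24 ± 0.19 (edgeR adjusted p = 0.641) and 0.25 ± 0.16 without muscle 4. Sdhd, a membrane anchor, was at -0.22 ± 0.21, and at -0.11 ± 0.16 without muscle 4.

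Complex III, which passes electrons from ubiquinol to cytochrome c, had 8 nuclear genes tested, 4 positive and 4 negative, with a median of 0.02 (-0.00 without muscle 4). They ranged from -0.39 to 0.34, and from -0.30 to 0.49 without muscle 4. Among those of at least 20 mean CPM, Uqcrb had the largest positive value with all libraries, and its sign changed without muscle 2. Uqcrh, the hinge protein, had the highest level per kilobase (133.6 CPM) and a log2 fold change of -0.00 ± 0.22, or -0.12 ± 0.18 without muscle 4. Uqcrc2, a core protein, had 66.5, 64.5 and 48.4 CPM in muscle and 80.5, 80.3 and 79.7 CPM in lymph node. Every muscle library lay below every lymph node library, at -0.39 ± 0.20 (edgeR adjusted p = 0.433) and -0.30 ± 0.16 without muscle 4. Uqcrc1, the other core protein, did not separate the tissues, with 153, 139 and 207 CPM against 174, 166 and 178 CPM, at -0.08 ± 0.20. Without muscle 4 it was at -0.25 ± 0.14 and both muscle libraries lay below all lymph node libraries.

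Complex IV, cytochrome c oxidase, had 12 nuclear genes tested, with a median log2 fold change of -0.06 (-0.00 without muscle 4). No gene of this group had libraries that were wholly higher or lower in muscle. Cox4i1, the most abundant nuclear gene per kilobase (284 CPM), had 212.0, 212.1 and 209.7 CPM in muscle and 194, 233 and 207 CPM in lymph node. Its mean was 211 CPM in both tissues, and its log2 fold change of -0.00 ± 0.17 had an interval from -0.38 to 0.38. Cox5a, which binds Cox4, had 28.5, 17.7 and 43.0 CPM in muscle and 20.6, 20.6 and 17.8 CPM in lymph node, at 0.50 ± 0.36, and at 0.26 ± 0.28 without muscle 4. Cox7a2l, a supercomplex assembly factor, was at -0.33 ± 0.24, and at -0.38 ± 0.21 without muscle 4.

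Several complex IV subunits have another isoform with a restricted pattern, and these had few counts in stromal cells of either tissue. The heart and skeletal muscle isoform Cox6a2 was at 0 counts in all libraries, against 189 counts of Cox6a1 in muscle, and taking 3 counts as the most that a count of 0 allows, its share of Cox6a counts was up to 1.59% in muscle and 0.80% in lymph node. Cox7a1, also typical of heart and skeletal muscle, had 4 counts beside 174 of Cox7a2 in muscle and 5 beside 312 in lymph node. Cox8b, the isoform of heart and skeletal muscle, had 1 count beside 282 of Cox8a in muscle and 4 beside 466 in lymph node. Cox4i2, known from lung and oxygen sensing, had 3 counts beside 756 of Cox4i1 in muscle (0.395%, exact 95% interval 0.0816% to 1.15%) and 5 beside 1337 in lymph node (0.373%, 0.121% to 0.867%). Cox6b2, Cox8c and Cox7b2 had 7, 2 and 1 counts over all libraries. Muscle fibre transcripts were nevertheless present: 18 fibre markers summed to between 126 and 157.5 CPM in muscle and between 44.0 and 68.3 CPM in lymph node, and their part in the mitochondrial mRNA levels was not tested.

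Ndufa4 and Ndufa4l2 form a further pair. Ndufa4 is counted here with complex IV, and its paralog Ndufa4l2 is known as a gene that rises in hypoxia. Ndufa4l2 (chr10:127514967-127517154) had 14, 19 and 1 counts in muscle 2, 3 and 4 and 7, 7 and 1 counts in lymph node 1, 2 and 3, too few for the filter with all libraries. It made up 10.4%, 23.5% and 3.70% of the counts of the pair in muscle and 4.86%, 4.09% and 0.833% in lymph node. Muscle 2 and 3 were above the lymph node libraries and muscle 4 was not, on a single count. Without muscle 4 it was tested and was the 1 gene called, at a log2 fold change of 2.11 ± 0.65 with an edgeR adjusted p of 0.0468. It then passed the filter through the 2 muscle libraries where it is high. Passing in this way favours genes that differ, so the call is no support for a difference. Ndufa4 itself had 63.8, 47.6 and 69.9 CPM in muscle and 78.2, 70.5 and 54.2 CPM in lymph node, at -0.18 ± 0.24, and at -0.27 ± 0.21 without muscle 4.

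Complex V had 15 nuclear genes tested, with a median log2 fold change of -0.04 (-0.01 without muscle 4). The 5 genes of the F1 head, which makes ATP, all had negative values between -0.27 and -0.04, at a median of -0.17, and of -0.01 without muscle 4. With total counts in place of TMM scaling, 3 of the 5 were negative, and 4 of 5 without muscle 3 or without lymph node 2. All 5 intervals lay within a 2-fold change. Atp5b, the catalytic beta subunit, had 415, 412 and 282 CPM in muscle and 482, 423 and 439.8 CPM in lymph node. Every muscle library lay below every lymph node library, muscle 4 by the widest margin, and the log2 fold change was -0.27 ± 0.20 (edgeR adjusted p = 0.612) and -0.12 ± 0.13 without muscle 4. Atp5a1, the alpha subunit, had 323, 310.4 and 293 CPM against 367, 349.7 and 388 CPM, at -0.25 ± 0.16 and -0.22 ± 0.13 without muscle 4.

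The c subunit, which forms the rotating ring of the synthase, is made from 3 nuclear genes whose mature products are the same protein. Atp5g3 had the most counts, with 72.3, 51.5 and 102 CPM in muscle and 59.96, 59.7 and 50.5 CPM in lymph node. Atp5g1 (chr11:96068852-96075670) had 10.02, 8.45 and 5.38 CPM in muscle and 21.7, 16.3 and 15.0 CPM in lymph node. The tissues did not overlap, and its log2 fold change of -1.03 ± 0.39 had an unadjusted p of 0.0271, an edgeR adjusted p of 0.243, and was -0.91 ± 0.35 without muscle 4. Atp5g1 made up 11.5%, 12.0% and 5.00% of c subunit counts in muscle and 26.2%, 20.99% and 21.4% in lymph node. Atp5g2 had 9, 14 and 0 counts in muscle and 2, 4 and 10 counts in lymph node and was not tested. Atp5g3 shares 0.455% of its words with other genes, against 15.4% for Atp5g1 and 40.8% for Atp5g2. Atp5g1 had 753 shared words beside a principal transcript of 596 bases. The part of reads with several alignments in the levels and shares of these genes was not tested. Atp5h, a subunit of the peripheral stalk, had 25.3, 16.9 and 8.06 CPM in muscle and 38.8, 39.5 and 24.6 CPM in lymph node. Muscle 2 lay above lymph node 3, and the log2 fold change was -0.87 ± 0.38 (edgeR adjusted p = 0.314) and -0.67 ± 0.29 without muscle 4.

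**Figure D5:**
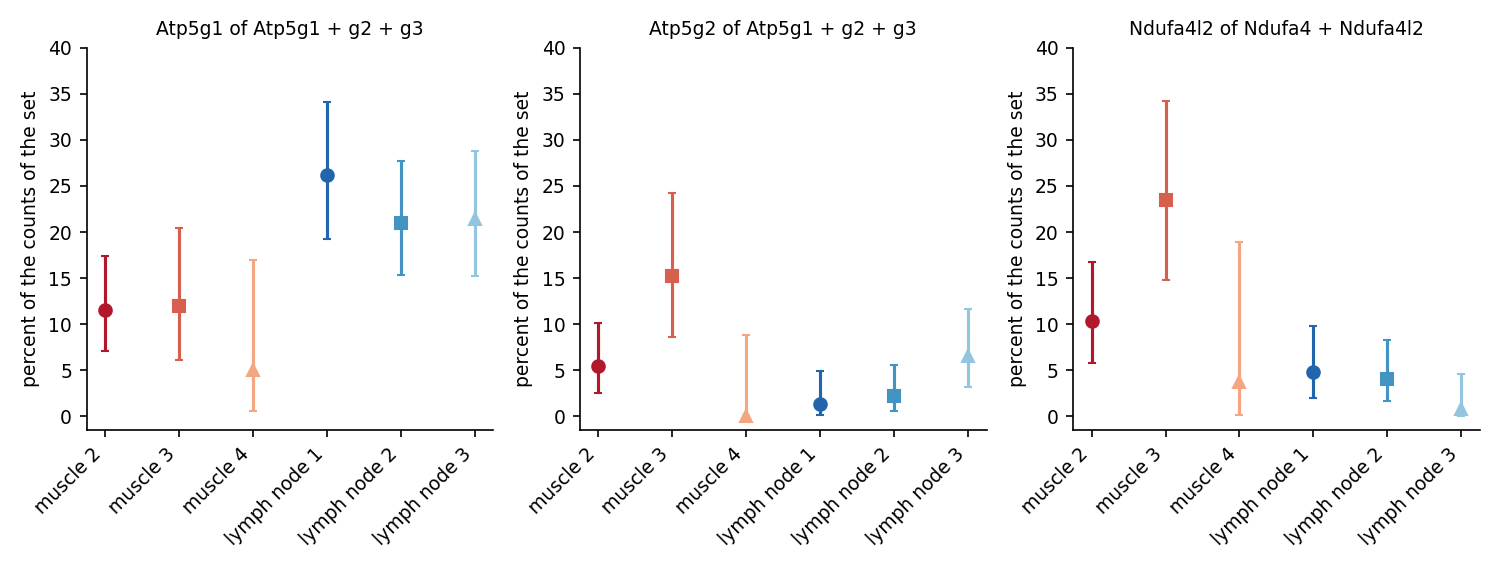
Percent of c subunit counts from Atp5g1 and Atp5g2, and percent of Ndufa4 plus Ndufa4l2 counts from Ndufa4l2, in each library. Bars are 95% exact binomial intervals for counting error, with each count taken as independent. Atp5g1 and Atp5g2 share 15.4% and 40.8% of their words with other genes. Atp5g1 lies between 5.00% and 12.0% in muscle and between 20.99% and 26.2% in lymph node.

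Of the 90 tested genes, 6 had every muscle library above every lymph node library and 8 had every one below, and 76 overlapped. The 6 were the mitochondrial mt-Nd6, mt-Cytb, mt-Nd5 and mt-Nd4 and the nuclear Ndufb7 and Sdhb. The 8 were Atp5g1, Atp5a1 and Atp5b of complex V, Uqcrc2 of complex III, the complex I core subunit Ndufs7 and the assembly factors Ndufaf6, Ndufaf8 and Ndufaf1. The shares of 6 and 8 in 90 are below the 9.93% and 13.7% of all tested genes. Words were pooled over all transcripts of a gene. Of 85 nuclear genes, Atp5o (95.3%) and Ndufaf2 (65.4%) shared over 50% of these words with other genes, and 13 shared over 20%. Long transcripts can lower this percent. Atp5l had 1080 shared words beside a principal transcript of 544 bases, and Ndufb2 had 447 beside 455 bases. Where the shared words lie was not examined, so ambiguous reads may limit more nuclear genes than these.

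The genes that serve the chain without being named for a complex were counted from lists. In the edgeR test over all libraries, 0 of 20 carrier genes (cytochrome c, coenzyme Q synthesis and related dehydrogenases), 0 of 24 assembly factors of complexes II to V, 0 of 25 regulators of mitochondrial gene expression and 0 of 75 mitochondrial ribosomal proteins passed, where 4.32% of all tested genes did, a share that leaves about 1 call or fewer in lists of 20 to 25 genes. Their median log2 fold changes were 0.05, 0.01, -0.21 and -0.02, against 0.02 over all tested genes, and -0.11, -0.06, -0.12 and -0.02 without muscle 4. Without muscle 4, where 12.4% of all tested genes were called, Coq10b (-0.69 ± 0.20, adjusted p = 0.0340), a coenzyme Q binding protein, and Polg2 (-1.55 ± 0.45, adjusted p = 0.0340), the accessory subunit of the mitochondrial DNA polymerase, were called lower in muscle. Summed mitochondrial ribosomal protein transcripts lay between 1504 and 1679 CPM in muscle and between 1539 and 1665 CPM in lymph node.

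Fuel pathways were counted the same way. With all libraries 0 of 18 genes of the tricarboxylic acid cycle and pyruvate dehydrogenase, 0 of 18 glycolysis genes and 0 of 11 antioxidant genes passed, against the same 4.32% of all genes. Their medians were -0.10, -0.17 and -0.06, and -0.08, -0.21 and -0.15 without muscle 4. Without muscle 4 the mitochondrial enzymes Pdhb (-0.66 ± 0.17, adjusted p = 0.0199) and Idh2 (-0.73 ± 0.21, adjusted p = 0.0304) and the glycolytic Ldha (-0.54 ± 0.15, adjusted p = 0.0315) were called lower in muscle, 2 of 18 and 1 of 18 genes against 12.4% of all genes. The uncoupling protein family gene Ucp2 (1.91 ± 0.38, adjusted p = 0.00377) and Glrx2 (1.03 ± 0.28, adjusted p = 0.0255) were then called higher, and Gpx1 (-0.49 ± 0.14, adjusted p = 0.0350), named after its values were seen, was called lower. Of 12 hypoxia response genes, Adm, which encodes the peptide adrenomedullin, was called lower in muscle with all libraries (-1.15 ± 0.26, adjusted p = 0.0386), and 0 were called higher. Without muscle 4, Epas1 (-0.88 ± 0.25, adjusted p = 0.0331), a hypoxia-inducible factor, was also called lower. Of 74 cytosolic ribosomal proteins 0 were called, and 8 were called lower in muscle without muscle 4, a share below the 12.4% of all genes. Their median log2 fold change was -0.11, and -0.33 without muscle 4.

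The tissues did differ in other lists of the same libraries. Of 21 immediate early and other genes known to respond to tissue dissociation, 16 were called lower in muscle, and 18 without muscle 4. Of all tested genes, 4.32% and 12.4% were called either way. The summed level of the 21 genes lay between 3602 and 4392 CPM in muscle and between 23260 and 25240 CPM in lymph node. The part of this difference in the oxidative phosphorylation levels was not tested.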

How the data were processed

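The deposited table holds raw counts per gene symbol, which per the submitters' processing notes came from STAR 2.5.4 and featureCounts on mm10. Per the labels' protocols, polyadenylated RNA was copied from an oligo(dT) primer, amplified, cut by a transposase and read as pairs of 25 bases. The annotation, the strand setting and the handling of reads with several alignments were not given in the sources used here. Muscle columns were used as 3 replicates without a link to single samples.

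Counts were tested for tissue with edgeR 4.0.16 in R 4.3.3 (filterByExpr, TMM, glmQLFit and glmQLFTest, two-sided, Benjamini-Hochberg adjusted over 10823 genes, threshold 0.05). Standard errors are log2 fold changes, without sign, over the square root of F. CPM values use TMM sizes, and levels per kilobase use the principal transcript of GENCODE M21. Words of 25 bases were compared over all GENCODE M21 transcripts. Alternatives were other scalings and filters, DESeq2 1.42.0, limma-voom 3.58.1 and leaving out each library.

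Named genes were the protein-coding mitochondrial genes, isoform sets, and in each nuclear complex the 2 highest per kilobase and the largest change each way at 20 mean CPM or more. Genes called only without muscle 4, up to 2 called genes of each other list, and those said to be singled out were added, as were genes whose libraries did not overlap. Members and lists were chosen with earlier results of these data known.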

Additional observations from a re-analysis of the deposited data

How the results depend on the processing

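With 3 libraries per tissue and 415460 counts in muscle 4, 2-fold differences of genes with few counts could not be resolved, and mRNAs listed at 0 could not be compared. Oxidative phosphorylation genes called stayed at 0 under each scaling, filter and tool without a block, and leaving out 1 library gave 0 to 1, the 1 being Ndufa4l2 without muscle 4. All genes called numbered 468, 945 without a filter, and 142 to 1391 when 1 library was left out (lowest without lymph node 2, highest without muscle 4). No filter moved the median log2 fold change of the 10823 tested genes to -0.14, and with it nuclear complex I to -0.19, II to -0.26, III to -0.14, IV to -0.22 and V to -0.22. Leaving out 1 library gave medians between -0.1976 and 0.01007 for nuclear complex IV and between -0.2562 and -0.008295 for complex V, both lowest without muscle 2. Total counts without scaling moved the median of all genes to 0.10. Without genes that share over 50% of their words, mt- genes held 0.440% of counts in muscle and 0.351% in lymph node. Of 34 named genes with a fitted value, 21 kept their sign in every setting, and 13, none of them called, changed it in at least 1. Column numbers 2 and 3 occur in both tissues, and the columns are not tied to the muscle titles. Deviations from the tissue means correlated at r = -0.03 and 0.02 within these pairs and between -0.06 and 0.07 in the other pairs. The muscle mean includes muscle 4, so these correlations cannot decide whether libraries of the same number share an animal or a batch. That number was also used as a replicate block, an alternative added after seeing the data, which leaves 1 residual degree of freedom. Then 1530 of all 10823 tested genes were called. Of the 90 tested oxidative phosphorylation genes 2 were called (mt-Cytb and mt-Nd4, higher in muscle), a smaller share than among all genes.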
